A study of Mus musculus with 9 samples.

Results

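The genes described are 10 components of transforming growth factor beta (TGF-beta) signalling in mouse kidney, of 22180 genes measured: the ligand genes Tgfb1, Tgfb2 and Tgfb3, the latent binding protein genes Ltbp1 and Ltbp2, the receptor genes Tgfbr1 and Tgfbr2, the induced matrix gene Tgfbi, and the feedback genes Smad7 and Skil. They were chosen by name, with earlier results of these data known. Each has 1 row of the array annotation that carries its symbol alone. Kidney RNA was measured on 9 arrays in 3 groups of 3. The first group received norursodeoxycholic acid (norUDCA) in its feed, a side-chain-shortened bile acid, for 5 days before common bile duct ligation (CBDL) lasting 3 weeks, and is called norUDCA-fed CBDL. The second had the same 3 weeks of ligation with no norUDCA named in its labels and is called CBDL. The third had a sham operation 3 weeks before and is called sham. The labels give no strain, age or sex, do not say whether feeding went on after the operation, and name no sham group fed norUDCA. Values are log2 signals from robust multi-array averaging (RMA), so a difference of 1 is a 2-fold change, and levels are compared between arrays for 1 gene and not between genes.

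TGF-beta ligands are secreted bound to their own propeptide, and latent TGF-beta binding proteins tether this complex to the extracellular matrix until integrins, thrombospondin or proteases release the ligand. Free ligand binds the receptor encoded by Tgfbr2, which recruits and phosphorylates the one encoded by Tgfbr1, and SMAD proteins carry the signal to the nucleus. In the kidney the pathway is known for driving matrix production by fibroblasts. It induces its own brakes, among them Smad7, which blocks the receptor, and Skil (SnoN), which represses SMAD target genes.

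RefSeq promoters on GRCm38.p6 were found for 7 of the 10 genes, in 9 windows. Tgfb3, Smad7 and Skil were not among them. The 250 bases before an annotated transcript start are shown for Tgfb1, Tgfb2, Tgfbi and Ltbp2, the members whose differences between groups remained past the test whichever array was left out in both comparisons that involve CBDL. These windows lie at chr7:25686752-25687001 (plus strand), chr1:186705990-186706239 (minus strand), chr13:56609336-56609585 (plus strand) and chr12:84876492-84876741 (minus strand). The Tgfb2 window lies inside the annotated span of its gene, and the Ltbp2 window overlaps the edge of its gene's span. Capitals mark 3 motifs, each read on both strands: the core of the SMAD box (CAGAC or GTCTG), the GC box (GGGCGG or CCGCCC) and the TATA box (TATAAA or TTTATA).
Tgfb1: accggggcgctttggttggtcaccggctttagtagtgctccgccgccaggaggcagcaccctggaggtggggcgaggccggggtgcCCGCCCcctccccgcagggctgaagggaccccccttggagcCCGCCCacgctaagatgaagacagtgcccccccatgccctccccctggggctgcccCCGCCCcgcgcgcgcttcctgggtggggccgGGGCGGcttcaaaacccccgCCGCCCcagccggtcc
Tgfb2: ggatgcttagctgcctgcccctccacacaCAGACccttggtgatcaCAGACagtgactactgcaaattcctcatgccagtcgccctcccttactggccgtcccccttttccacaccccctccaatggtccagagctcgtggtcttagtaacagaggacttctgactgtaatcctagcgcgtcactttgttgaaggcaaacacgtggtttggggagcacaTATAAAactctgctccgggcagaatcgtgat
Tgfbi: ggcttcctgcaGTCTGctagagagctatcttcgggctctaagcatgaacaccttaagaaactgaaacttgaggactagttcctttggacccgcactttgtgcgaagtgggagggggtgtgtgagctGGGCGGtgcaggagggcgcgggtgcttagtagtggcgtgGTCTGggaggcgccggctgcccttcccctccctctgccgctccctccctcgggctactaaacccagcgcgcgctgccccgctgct
Ltbp2: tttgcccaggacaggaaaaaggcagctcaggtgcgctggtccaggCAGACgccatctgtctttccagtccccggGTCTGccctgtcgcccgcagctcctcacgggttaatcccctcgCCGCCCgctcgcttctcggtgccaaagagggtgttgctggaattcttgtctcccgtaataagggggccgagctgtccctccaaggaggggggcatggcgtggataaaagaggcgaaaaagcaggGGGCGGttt
No 2 marked motifs overlap. The Tgfb1 window has 5 GC boxes, no SMAD box core, no TATA box and 75.2% G and C. The Tgfb2 window has 2 SMAD box cores, no GC box, 53.6% G and C, and a TATA box that begins 31 bases before the start. Tgfbi has 2 SMAD box cores and 1 GC box, and Ltbp2 has 2 of each. Over all 9 windows of members, 7 hold the SMAD box core and 4 the GC box. Among 32851 promoters of the same length, 42.2% hold the SMAD box core, 32.7% the GC box and 12.4% the TATA box, so a match describes the letters and is common.

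Array medians lay between 5.70 and 5.79. The first principal component (58.3% of the variance) ran from -6.63 to 0.52 on norUDCA-fed CBDL arrays, 26.14 to 57 on CBDL arrays and -42.19 to -34.12 on sham arrays. On the second (13%), 2 arrays lay far below the rest, sham_159 (-34.54) and CBDL_165 (-22.91), with 3.42 to 12.03 on the other 7, so counts are also given without them. The Y-linked genes Kdm5d, Eif2s3y and Uty were lower on norUDCA_CBDL_172 (6.46, 7.64 and 7.66) than on any other array (at least 7.89, 8.49 and 9.15). The 8 proximal tubule markers, which check the labelled tissue, had a summed linear signal of 34795 to 37442 in norUDCA-fed CBDL, 11945 to 24735 in CBDL and 41678 to 43506 in sham. The labels do not say how replicates were obtained, and the p-values therefore speak only of the spread among these samples, which may be technical. A gene is said to have risen or fallen when its Benjamini-Hochberg adjusted p over all 22180 genes in limma was under 0.05.

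After ligation 8 of the 10 genes rose: all 3 ligands, both receptors, Tgfbi, Ltbp2 and Skil. The rises ran from 1.58-fold for Skil to 6.42-fold for Ltbp2, and Ltbp1 and Smad7 did not pass. Over all genes 10.3% rose in this comparison and 21.8% changed either way. Against CBDL, in norUDCA-fed CBDL, 8 of the 10 genes were lower and passed: the ligands, the receptors, Tgfbi and both latent binding proteins, where 3.2% of all genes fell and 6.8% changed either way. In norUDCA-fed CBDL against sham only Tgfb1 and Tgfbi rose, where 1.82% of all genes did and 3.18% changed either way. The CBDL arrays serve in both of the first 2 comparisons, so a high or low CBDL array moves both, in opposite directions.

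**Figure D1:**
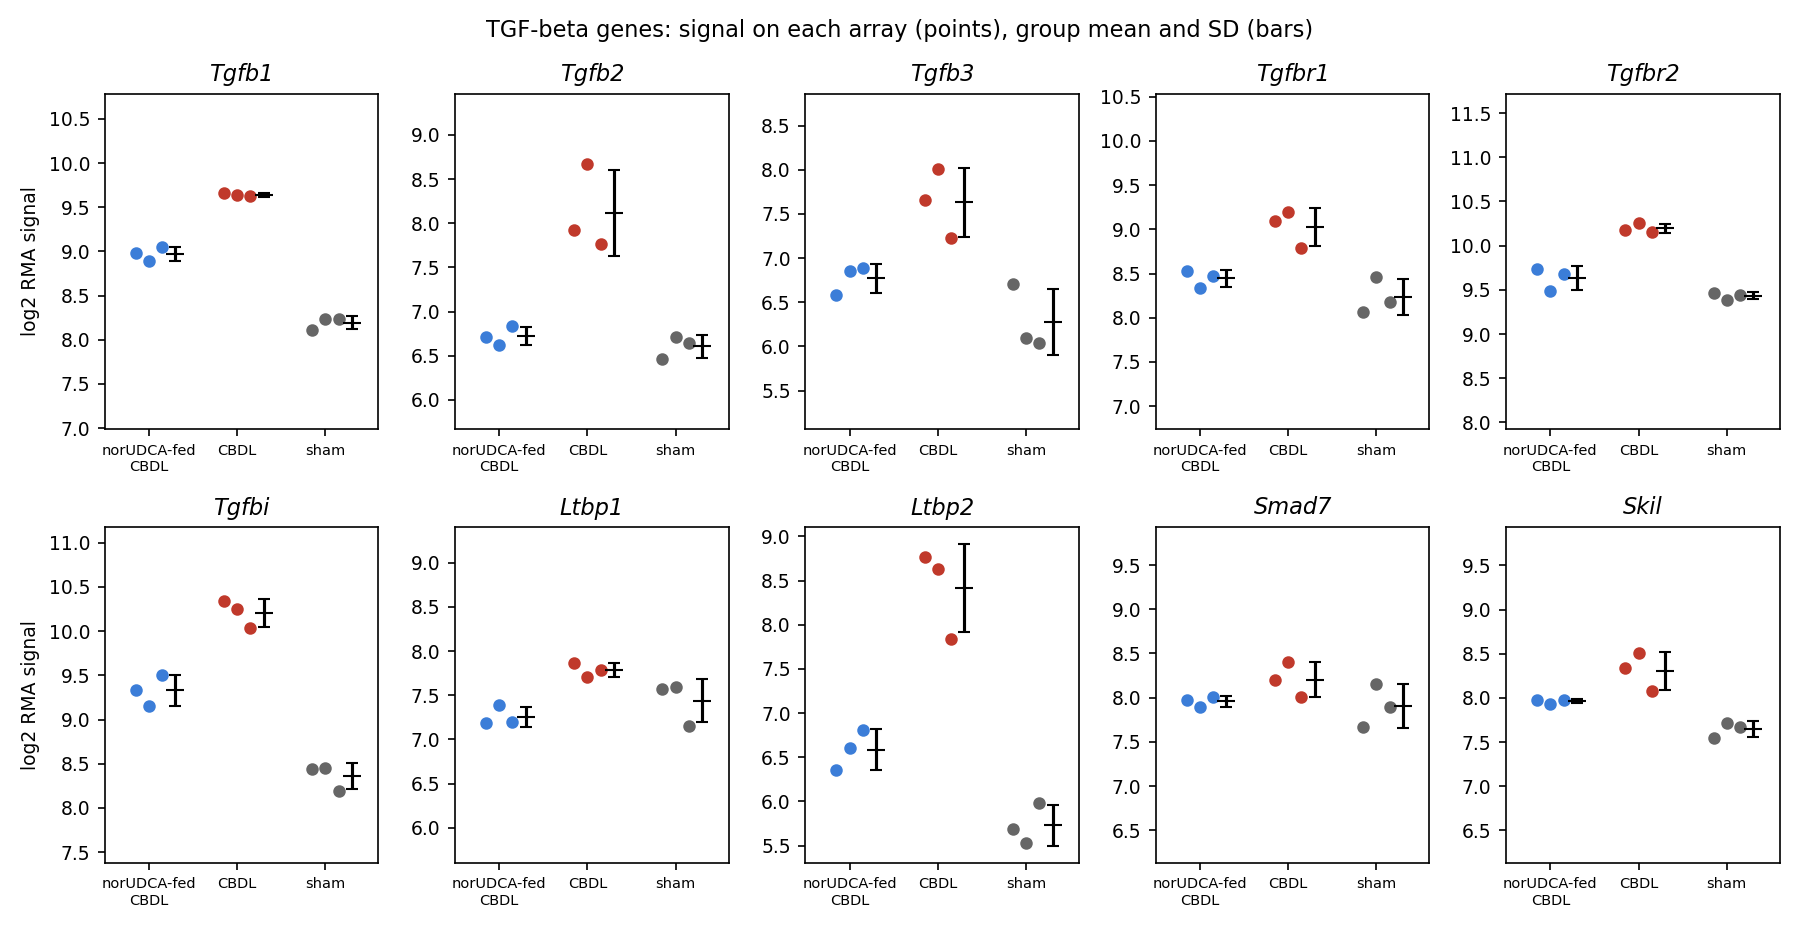
Log2 RMA signal of the 10 genes on each array, by group (norUDCA-fed CBDL, CBDL, sham). Points are arrays, bars the group mean and SD (n = 3), and every panel spans the same range of log2 units. Tgfb1, Tgfbr2, Tgfbi, Ltbp2 and Skil form 3 separate steps, Tgfb2 in norUDCA-fed CBDL overlaps sham, and the Smad7 groups overlap.

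Among the ligands, Tgfb1, the main isoform made by inflamed and scarring kidney, had 8.98, 8.89 and 9.05 in norUDCA-fed CBDL, 9.66, 9.64 and 9.62 in CBDL, and 8.11, 8.24 and 8.23 in sham. The 3 groups did not overlap anywhere, with CBDL highest and norUDCA-fed CBDL in between. Tgfb1 rose by 1.45 (SE 0.09, 2.72-fold, adjusted p = 2.35e-05) in CBDL against sham. It fell by 0.67 (SE 0.09, adjusted p = 0.00814) in norUDCA-fed CBDL against CBDL and stayed 0.78 (SE 0.09, 1.72-fold, adjusted p = 0.0029) above sham.

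Tgfb2, an isoform best known from development and epithelia, had 6.71, 6.62 and 6.83 in norUDCA-fed CBDL, 7.92, 8.67 and 7.76 in CBDL, and 6.46, 6.71 and 6.65 in sham. CBDL arrays were above all others, CBDL_165 by most, and the norUDCA-fed CBDL and sham arrays overlapped. Tgfb2 rose by 1.51 (SE 0.21, 2.85-fold, adjusted p = 0.000669) in CBDL against sham and fell by 1.40 (SE 0.21, adjusted p = 0.00827) in norUDCA-fed CBDL against CBDL. Against sham the norUDCA-fed CBDL difference was 0.11 (95% interval -0.35 to 0.58, adjusted p = 0.828). For Tgfb1 the interval of the same difference was 0.58 to 0.98. The difference between the Tgfb2 and Tgfb1 signals of the same array, a measure chosen after the values were seen, differed by 0.07 between CBDL and sham (exact permutation p = 1), by -0.73 between norUDCA-fed CBDL and CBDL and by -0.66 between norUDCA-fed CBDL and sham. In the last 2 cases the groups of 3 arrays did not overlap, and the two-sided exact permutation p was 0.1, the smallest that 3 arrays against 3 can give.

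Tgfb3, the isoform made largely by mesenchymal cells, had 6.58, 6.85 and 6.88 in norUDCA-fed CBDL, 7.65, 8.01 and 7.23 in CBDL, and 6.70, 6.09 and 6.04 in sham. CBDL arrays were again the highest, and sham_158 lay inside the range of the norUDCA-fed CBDL arrays. Tgfb3 rose by 1.35 (SE 0.22, 2.55-fold, adjusted p = 0.00186) in CBDL against sham. Its fall of 0.86 in norUDCA-fed CBDL against CBDL (SE 0.22) passed at an adjusted p of 0.04995 and did not under 11 of 16 alternatives. These include leaving out sham_159 (0.061), sham_160 (0.0617), CBDL_164 (0.143), CBDL_165 (0.163), norUDCA_CBDL_172 (0.164), norUDCA_CBDL_175 (0.13) or norUDCA_CBDL_179 (0.107). Against sham it differed by 0.50 (95% interval -0.0012 to 0.99, adjusted p = 0.307).

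Ltbp2, which encodes a binding protein of elastic fibres that, unlike its relatives, does not hold latent TGF-beta, had the largest differences of the 10 genes in both comparisons that involve CBDL. It had 6.35, 6.601 and 6.81 in norUDCA-fed CBDL, 8.77, 8.63 and 7.84 in CBDL, and 5.69, 5.53 and 5.98 in sham. The groups did not overlap, and CBDL_170 was the lowest CBDL array. Ltbp2 rose by 2.68 (SE 0.23, 6.42-fold, adjusted p = 6.68e-05) in CBDL against sham and fell by 1.83 (SE 0.23, adjusted p = 0.00752) in norUDCA-fed CBDL against CBDL. Its sham signal averaged 5.73 ± 0.23 (SD, n = 3), near the array medians, and was not shown to be above background. The size of its differences from sham is therefore uncertain. The difference of 0.86 between norUDCA-fed CBDL and sham did not pass (SE 0.23, adjusted p = 0.0908) and did without CBDL_170 (adjusted p = 0.0217) or with only the 6 arrays compared (0.038). Another row that names Ltbp2 together with a second gene was not used.

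Ltbp1, which does anchor latent TGF-beta to the matrix, had 7.18, 7.39 and 7.19 in norUDCA-fed CBDL, 7.87, 7.70 and 7.79 in CBDL, and 7.57, 7.59 and 7.15 in sham. The CBDL arrays were above the sham arrays by a narrow margin, and the norUDCA-fed CBDL arrays lay below sham_158 and sham_159 and above sham_160. The difference of 0.35 between CBDL and sham did not pass (95% interval 0.05 to 0.65, adjusted p = 0.0935). Ltbp1 fell by 0.53 in norUDCA-fed CBDL against CBDL (SE 0.13, adjusted p = 0.0423). That call ended without sham_158 (adjusted p = 0.058), CBDL_164 (0.14), CBDL_165 (0.0827), CBDL_170 (0.0741), norUDCA_CBDL_172 (0.143), norUDCA_CBDL_175 (0.0822) or norUDCA_CBDL_179 (0.135). Against sham the norUDCA-fed CBDL difference was -0.18 (95% interval -0.48 to 0.11, adjusted p = 0.532).

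Both receptor genes rose after ligation. Tgfbr1, the signalling receptor kinase, had 8.53, 8.34 and 8.47 in norUDCA-fed CBDL, 9.10, 9.19 and 8.78 in CBDL, and 8.07, 8.46 and 8.18 in sham. Tgfbr2, the ligand-binding kinase, had 9.74, 9.49 and 9.68 in norUDCA-fed CBDL, 10.18, 10.26 and 10.16 in CBDL, and 9.47, 9.39 and 9.45 in sham. For both receptors CBDL was the highest group without overlap, and norUDCA-fed CBDL lay close to sham. The norUDCA-fed CBDL and sham arrays overlapped for Tgfbr1, while for Tgfbr2 every norUDCA-fed CBDL array was above every sham array by a narrow margin. Tgfbr1 rose by 0.79 (SE 0.14, 1.73-fold, adjusted p = 0.00289) and Tgfbr2 by 0.77 (SE 0.10, 1.70-fold, adjusted p = 0.000459) in CBDL against sham. In norUDCA-fed CBDL against CBDL, Tgfbr2 fell by 0.57 (SE 0.10, adjusted p = 0.0124) and was no longer called without norUDCA_CBDL_175 (0.054). Tgfbr1 fell by 0.58 (SE 0.14, adjusted p = 0.0383), and its call ended without sham_160 (0.0575), CBDL_164 (0.127), CBDL_165 (0.127), norUDCA_CBDL_172 (0.0873), norUDCA_CBDL_175 (0.14) or norUDCA_CBDL_179 (0.102). Against sham the norUDCA-fed CBDL differences were 0.21 for Tgfbr1 (95% interval -0.10 to 0.52) and 0.20 for Tgfbr2 (-0.02 to 0.42), and neither passed.

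Tgfbi encodes a secreted matrix protein named for its induction by TGF-beta. It had 9.34, 9.15 and 9.51 in norUDCA-fed CBDL, 10.35, 10.25 and 10.03 in CBDL, and 8.44, 8.46 and 8.19 in sham. Like Tgfb1 it formed 3 steps with no overlap. It rose by 1.85 (SE 0.13, 3.59-fold, adjusted p = 3.44e-05) in CBDL against sham, fell by 0.88 (SE 0.13, adjusted p = 0.00883) in norUDCA-fed CBDL against CBDL and stayed 0.97 (SE 0.13, 1.96-fold, adjusted p = 0.00621) above sham.

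Of the feedback genes, Skil passed the test in CBDL against sham and Smad7 did not. Skil had 7.98, 7.93 and 7.98 in norUDCA-fed CBDL, 8.33, 8.51 and 8.08 in CBDL, and 7.54, 7.72 and 7.67 in sham. The 3 groups did not overlap. Skil rose by 0.66 (SE 0.12, 1.58-fold, adjusted p = 0.00299) in CBDL against sham. Its difference of -0.35 between norUDCA-fed CBDL and CBDL (SE 0.12, adjusted p = 0.128) passed, among the alternatives run, only without CBDL_170 (0.0337), and that of 0.32 against sham (adjusted p = 0.216) passed only with array weights (0.0469).

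Smad7 had 7.98, 7.89 and 8.01 in norUDCA-fed CBDL, 8.20, 8.40 and 8.01 in CBDL, and 7.67, 8.16 and 7.90 in sham. Neighbouring groups overlapped or touched, and sham_159 was above CBDL_170. Smad7 differed by 0.30 in CBDL against sham (95% interval -0.02 to 0.62, adjusted p = 0.184). It differed by -0.24 in norUDCA-fed CBDL against CBDL (adjusted p = 0.422) and by 0.05 against sham (adjusted p = 0.896), and the last turned to -0.07 without sham_158. Whether Smad7 and Skil differ in their response was not tested.

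**Figure D2:**
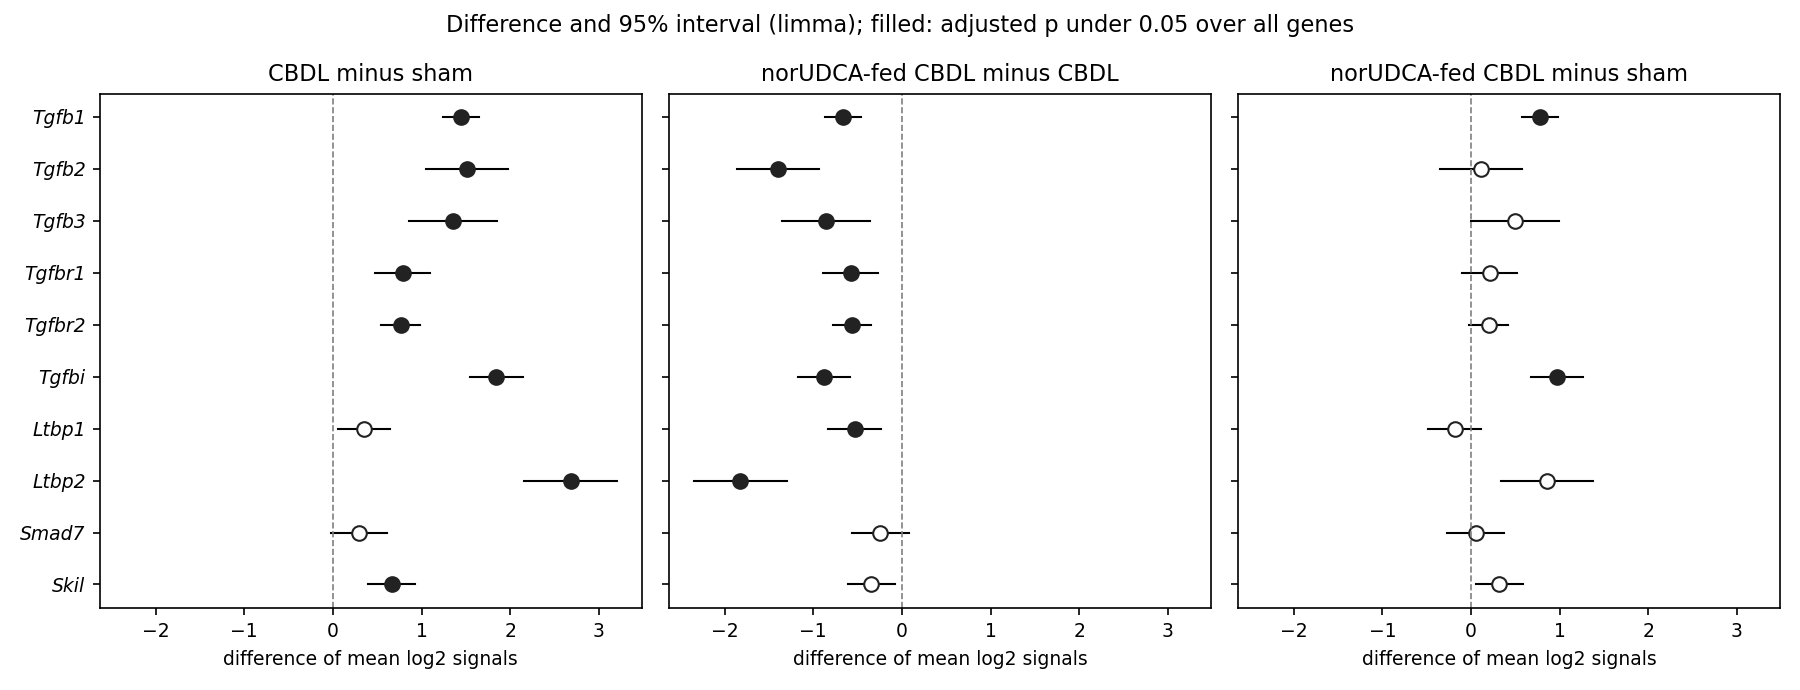
Differences of mean log2 signals of the 10 genes in the 3 comparisons, with 95% intervals from limma. Filled points passed at an adjusted p under 0.05 over all genes: 8 above 0 in CBDL minus sham, 8 below 0 in norUDCA-fed CBDL minus CBDL, and Tgfb1 and Tgfbi above 0 in norUDCA-fed CBDL minus sham.

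The 10 genes were chosen with earlier results of these data known, so their distance from all genes describes the set and is no independent test. Counted over the set, the median difference of the 10 genes was 1.07 in CBDL against sham, where the median of all genes was -0.06. It was -0.62 in norUDCA-fed CBDL against CBDL (all genes 0.00) and 0.26 in norUDCA-fed CBDL against sham (all genes -0.05). The groups did not overlap for 9 of 10 in the first comparison, all with CBDL higher, where 15.6% of all genes lay so. In the second they did not overlap for 9 of 10, all with norUDCA-fed CBDL lower (12.6% of all genes), and in the third for 5, all higher (8.96%). The ligation count was 8 whichever array was left out and without sham_159 and CBDL_165. The count of 8 in norUDCA-fed CBDL against CBDL was 4 without norUDCA_CBDL_175, 5 without CBDL_164, CBDL_165, norUDCA_CBDL_172 or norUDCA_CBDL_179, and 5 without sham_159 and CBDL_165 together. Tgfb1, Tgfb2, Tgfbi and Ltbp2 were past the test in every one of these 6 settings.

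Other genes of the pathway were read in 6 lists with 65 measured members, also chosen with earlier results of these data known. In CBDL against sham 35 rose and 4 fell, in norUDCA-fed CBDL against CBDL 2 rose and 18 fell, and in norUDCA-fed CBDL against sham 13 rose and 0 fell (4 were lower at an unadjusted p under 0.05 in limma). Over all genes, 11.5% fell in the first comparison, 3.61% rose in the second and 1.37% fell in the third. An unadjusted p under 0.05 was reached by 33.3%, 19.3% and 16.3% of all genes in the 3 comparisons. The 18 that fell in norUDCA-fed CBDL against CBDL were 8 without CBDL_164, 10 without CBDL_165, 10 without norUDCA_CBDL_172, 9 without norUDCA_CBDL_175 and 9 without norUDCA_CBDL_179. The 13 that rose against sham were 6 without sham_160, 4 without norUDCA_CBDL_172, 7 without norUDCA_CBDL_175 and 4 without norUDCA_CBDL_179.

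Of 11 genes listed under latency and activation of TGF-beta, which do not all act in 1 direction, 7 rose and 2 fell in CBDL against sham (median 0.71). Thbs1, the activator thrombospondin, rose by 2.36 (SE 0.18), Emilin1, an elastic fibre protein, by 1.30, and the integrin chains Itgav and Itgb5 by 0.71 and 0.76. The 2 that fell were Ltbp4, a binding protein, by 0.46 and Itgb8, an integrin chain that activates the ligand, by 0.77, both named after their values were seen. Against CBDL, 4 fell and 1 rose in norUDCA-fed CBDL (median -0.37). Thbs1 fell by 1.51 (SE 0.18, adjusted p = 0.00655), Emilin1 by 0.71 and Ltbp3, a binding protein, by 0.66, while Itgb8 was the gene that rose, by 0.62. Leaving out single arrays gave 2 to 4 falls and 0 to 1 rises in this list, and 1 to 2 falls in CBDL against sham. Against sham, Emilin1 rose by 0.59 and Thbs1 by 0.84 in norUDCA-fed CBDL. Ltbp3 lost its call against CBDL without CBDL_164, CBDL_165 or any norUDCA-fed CBDL array (adjusted p up to 0.0822). Against sham Emilin1 lost its call without sham_159, sham_160 or any norUDCA-fed CBDL array (up to 0.102), and Thbs1 without any sham or any norUDCA-fed CBDL array (up to 0.151).

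Of 6 other receptors and co-receptors, Acvr1, a type I receptor, rose by 0.53 and Tgfbrap1, a receptor-associated protein, fell by 0.31 in CBDL against sham. Among all genes, 10.3% rose and 11.5% fell in that comparison, and a count of 1 each way in 6 is not set apart from those shares. In the other comparisons limma called 0 of these 6 genes, and 1 was lower than CBDL and 1 higher and 1 lower than sham at an unadjusted p under 0.05. Of 6 SMAD and SMAD-anchor genes, Smad2 rose by 0.53 and Smad4, the shared partner of receptor-activated SMADs, by 0.35 in CBDL against sham. No gene of this list was called by limma in norUDCA-fed CBDL against CBDL or sham, with 3 lower than CBDL and 0 different from sham at an unadjusted p under 0.05. Tgfbrap1 kept its call without CBDL_165 or norUDCA_CBDL_175 alone (adjusted p up to 0.107 otherwise), Smad4 without norUDCA_CBDL_175 alone (up to 0.137 otherwise), and Smad2 lost it without sham_158 or sham_160 (up to 0.0568).

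Of 11 other inhibitors and feedback genes, 4 rose and 0 fell in CBDL against sham (0 lower at an unadjusted p under 0.05 in limma). They were Pmepa1, an induced inhibitor that sequesters SMADs, at 1.53 (SE 0.13), Dcn, the proteoglycan decorin, at 1.33, Tgif1, a SMAD corepressor, at 1.002, and Smurf1, a ubiquitin ligase, at 0.79. In norUDCA-fed CBDL against CBDL, Pmepa1 fell by 0.93 (SE 0.13, adjusted p = 0.00815), Smurf1 by 0.65 and Tgif1 by 0.64. The Smurf1 and Tgif1 falls were each no longer called when any of 7 single arrays was omitted (largest adjusted p 0.144 for Smurf1 and 0.159 for Tgif1). Against sham, Dcn rose by 1.03 and Pmepa1 by 0.60 in norUDCA-fed CBDL. Dcn lost that call without norUDCA_CBDL_172 or norUDCA_CBDL_179 (up to 0.0618), and Pmepa1 without any 1 of 7 arrays (up to 0.166).

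Of 17 genes known to be induced by TGF-beta, 16 rose in CBDL against sham (median 1.46). Timp1, an inhibitor of metalloproteinases, was higher by 4.06 (SE 0.23), the collagen genes Col1a1 by 3.06, Col3a1 by 3.00 and Col1a2 by 2.59. The gene that did not pass was Snai1, a transcription factor, at 0.31 (adjusted p = 0.148). Against CBDL, 9 fell in norUDCA-fed CBDL (median -0.95), with Fn1, which encodes fibronectin, at -1.63 (SE 0.21), Col1a1 at -1.49 and Col1a2 at -1.27. Against sham 8 were still higher in norUDCA-fed CBDL (median 0.68), with Timp1 at 2.94, Col1a1 at 1.57 and Col1a2 at 1.31. Leaving out single arrays gave 5 to 11 falls against CBDL and 4 to 8 rises against sham. Timp1 averaged 4.54 ± 0.53 in sham (SD, n = 3), a dim signal that was not shown to be above background, so the size of its difference is uncertain.

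**Figure D3:**
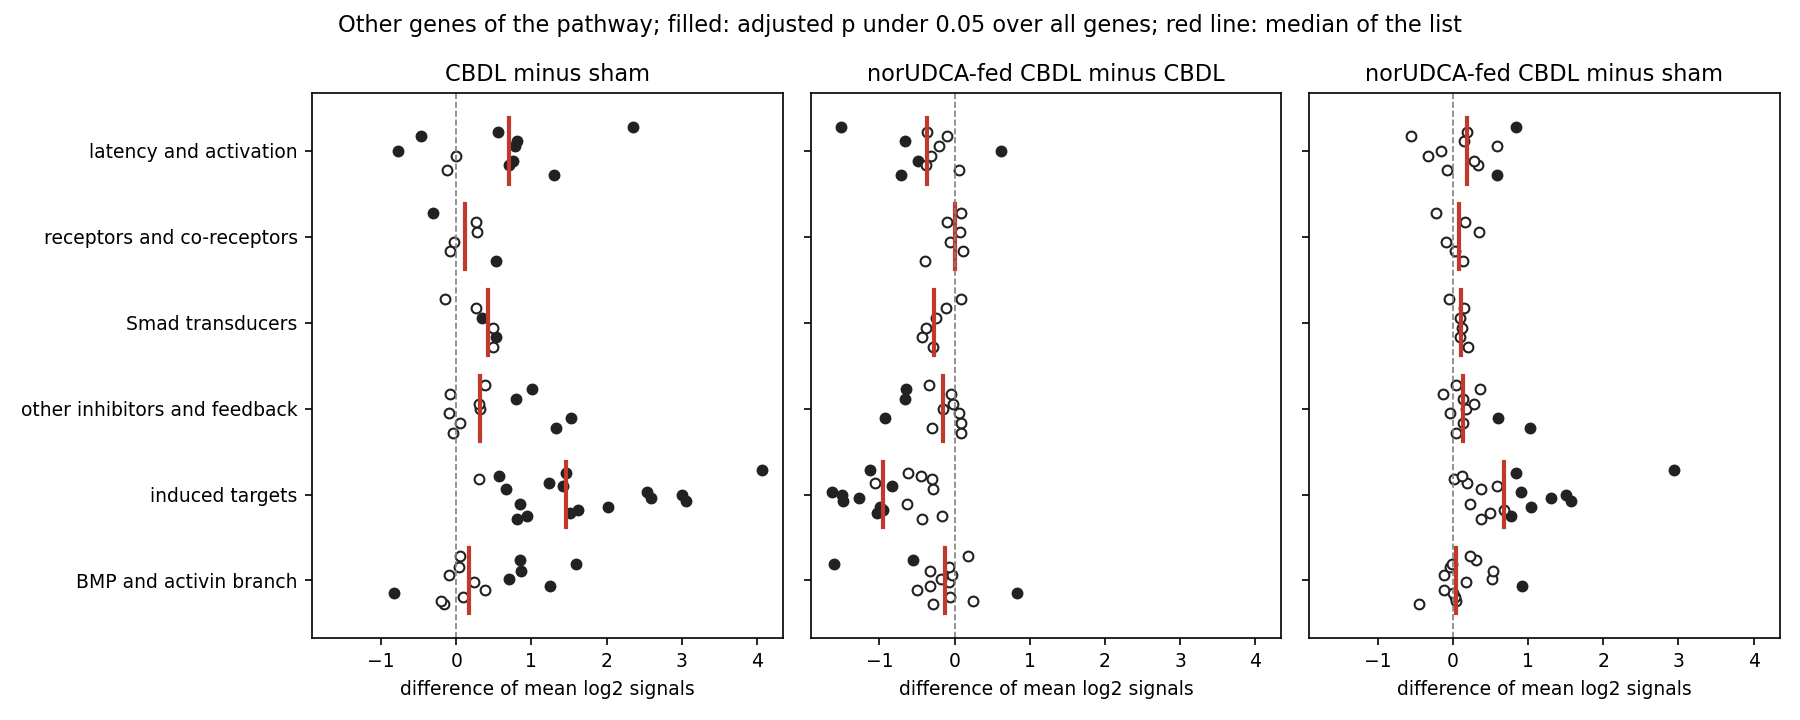
Differences of mean log2 signals of the 65 other pathway genes by list, in the 3 comparisons. Each point is a gene, filled where its adjusted p was under 0.05, and the red line is the list's median: induced targets lie furthest from 0, at 1.46, -0.95 and 0.68.

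Of 14 genes of the bone morphogenetic protein (BMP) and activin branch, 5 rose and 1 fell in CBDL against sham (median 0.16). The activin antagonist Fst rose by 1.25 (SE 0.14), the activin chain Inhbb by 0.85 and Id3, a BMP target, by 0.86. Bmp7, a tubular BMP known to oppose TGF-beta in the kidney, was the gene that fell. It had 9.56, 9.75 and 9.59 in norUDCA-fed CBDL, 8.84, 8.65 and 8.92 in CBDL, and 9.71, 9.68 and 9.50 in sham. CBDL arrays lay below all others, and the norUDCA-fed CBDL and sham arrays overlapped. Bmp7 fell by 0.83 (SE 0.11, adjusted p = 0.000595) in CBDL against sham and rose by 0.83 (SE 0.11, adjusted p = 0.00794) in norUDCA-fed CBDL against CBDL, and these calls held whichever array was left out. Inhba, an activin chain, fell by 1.60 (SE 0.27, adjusted p = 0.0116) and Inhbb by 0.55 in norUDCA-fed CBDL against CBDL. Inhba lost its call without CBDL_164 (0.0518) and was dim in norUDCA-fed CBDL and sham (4.63 in each), and Inhbb lost its call without any 1 of 7 arrays (up to 0.123). Against sham, Fst rose by 0.92 in norUDCA-fed CBDL, a call that ended without norUDCA_CBDL_172 or norUDCA_CBDL_179 (up to 0.0571).

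Markers of macrophage and myeloid cells, of fibroblasts and pericytes, and of proximal tubule were read beside these genes. Over all genes 10.3% rose in CBDL against sham, 3.2% fell in norUDCA-fed CBDL against CBDL and 1.82% rose in norUDCA-fed CBDL against sham. All 12 macrophage and myeloid markers rose in CBDL against sham, 10 fell in norUDCA-fed CBDL against CBDL and 9 rose against sham. Their summed linear signal was 3822 to 4177 in norUDCA-fed CBDL, 6489 to 12593.5 in CBDL and 1859 to 2606 in sham. Of 8 fibroblast and pericyte markers, 7 rose, 3 fell and 4 rose in the same order, with sums of 5900 to 6695 in norUDCA-fed CBDL, 9337 to 10951 in CBDL and 2960 to 3863 in sham. This list shares Col1a1, Col1a2 and Dcn with the pathway lists. Of the 8 proximal tubule markers, 8 fell in CBDL against sham, 7 rose in norUDCA-fed CBDL against CBDL and 0 were called by limma against sham, where 1 was lower at an unadjusted p under 0.05. The part of these cell types in the differences of the TGF-beta genes was not tested. In whole kidney RNA a change in the number of cells of a type and a change in RNA per cell cannot be told apart.

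Markers of 7 other cell types were read in the same way. In CBDL against sham 3 of 5 thick limb and distal tubule markers, 1 of 5 of collecting duct, 1 of 4 of podocyte, 1 of 6 of endothelium and 1 of 7 of lymphocytes fell, and 1 of 4 platelet markers rose. Over all genes 11.5% fell and 10.3% rose there, and a count of 1 in lists this short is not set apart from those shares. In norUDCA-fed CBDL against CBDL 1 marker each of thick limb and distal tubule, collecting duct and endothelium rose, where 3.61% of all genes did. Against sham, 1 of 7 lymphocyte markers fell in norUDCA-fed CBDL, where 1.37% of all genes did. No marker of 4 for urothelium was called by limma in any comparison, and 1 was higher in CBDL against sham and 1 lower in norUDCA-fed CBDL against CBDL at an unadjusted p under 0.05. Their part was not tested either.

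Among 12107 other genes with a mean signal of at least 6, those whose levels over the 9 arrays were most like each member were named by Pearson r. All 9 points come from 3 groups, so r mixes differences between groups with spread within them. Smad7 itself passed in no comparison. Nearest to Tgfb1 were Sulf1, a heparan sulfatase (r = 0.99), Rcn1 and Inpp5d, a phosphatase of blood cells (0.99 each). Nearest to Tgfbi were Slit3 (r = 0.997), Cacna1d (0.996) and Mmp14, a membrane metalloproteinase (0.996), and nearest to Ltbp2 were Elf4, Fbln2, an elastic fibre protein, and Nkd2 (0.99 each). Tgfb2 was nearest to Apaf1 (0.99), 2310015A10Rik (0.99) and 1700017B05Rik (0.99), Tgfb3 to Cerk, 2610203C20Rik and Ptprs (0.98 each). Tgfbr1 was nearest to Gja1, a gap junction protein (0.99), Ap1s2 (0.98) and Rhobtb3 (0.98), and Tgfbr2 to Klf16 (0.995), Fgd3 (0.99) and Coro2a (0.99). Skil was nearest to Kdm1a, Inf2 and Rps9 (0.99 each), Smad7 to Cic (0.97), Chd6 and Pgs1 (0.96 each), and Ltbp1 to Ccnd2 (0.95), Herc6 (0.94) and Tpm2 (0.92). Among the members, Tgfb1 and Tgfbi were the most alike pair (r = 0.99) and Ltbp1 and Smad7 the least (0.44).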

How the data were processed

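The authors deposited log2 signals per transcript cluster, made with RMA in Partek 6.6 per the submitters' processing notes. TRIzol extraction and labelling with the Affymetrix WT PLUS kit are per the labels' protocols. The genome build and filters used are not given in the sources used here. For that reason no coordinates are printed apart from those of the promoter windows on GRCm38.p6.

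Of 41345 rows, 23521 carry 1 gene symbol, 1814 several and 16010 none in the annotation. The brightest single-symbol row per gene left 22180 genes, with no filter on signal. limma 3.58.1 in R 4.3.3 fitted 1 mean per group over all 9 arrays (6 residual and 3.77 prior degrees of freedom), two-sided, and was checked on simulated data. Named pathway genes were up to 4 called genes of lowest p per list in CBDL against sham and up to 3 in each other comparison. Others are marked or given as exceptions of a count, and the 3 genes of highest r were named per member. The members and all lists were chosen with earlier results of these data known. Some listed genes were not analysed here.

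The alternatives were an intensity trend, array weights, only the 6 arrays compared, quantile normalization, the mean of a gene's rows, leaving out the dimmest 33.3% of genes, and leaving out each array. The fit without sham_159 and CBDL_165 was chosen after seeing the data. Precision is limited by the small number of arrays: over all genes the median SE of a difference was 0.14.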

Additional observations from a re-analysis of the deposited data

How the results depend on the processing

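Of 480 differences of the 10 genes under the alternatives, 447 kept their direction and their side of the threshold, 28 lost their call, 4 gained one, and 1, Smad7 in norUDCA-fed CBDL against sham, turned sign at -0.0702 without sham_158 and was 0.18 without sham_159. All 28 losses lie in norUDCA-fed CBDL against CBDL. There, leaving out 1 array gave 4 to 8 of the 10 genes, 9 to 22 pathway genes and 278 to 2043 of all genes, against 8, 20 and 1509. Without sham_159 and CBDL_165 the counts were 5, 13 and 749, and with only the 6 arrays compared 912 genes were called. Against sham, leaving out 1 array gave 4 to 14 pathway genes and 156 to 822 of all genes for norUDCA-fed CBDL, against 13 and 706, and array weights gave 25 and 1638. In CBDL against sham it gave 8 members throughout, 33 to 40 pathway genes and 3794 to 4604 of all genes, against 39 and 4844. In norUDCA-fed CBDL against CBDL the count of all genes was 2043 without CBDL_170 and 278 without norUDCA_CBDL_175. Fewer arrays leave fewer degrees of freedom, and the cause of the changes in these counts was not tested. No paired analysis was possible because no replicate number is shared between groups.

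Values identical to every deposited digit on all 3 arrays of a group were found for 375 genes in norUDCA-fed CBDL (1.69%), 204 in CBDL and 156 in sham, Col3a1 and Smad5 in norUDCA-fed CBDL among them. Such a gene shows no spread in that group, so its spread may be understated. The step that made these values identical is not given in the sources used here. Of the 10 genes, Skil had the same value on norUDCA_CBDL_172 and norUDCA_CBDL_179, and Smad7 on CBDL_170 and norUDCA_CBDL_179.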
